A study of Mus musculus with 6 samples.

Results

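The BCL2 family decides at the mitochondrial surface whether a cell survives or dies by apoptosis. The data cover 10 of its genes, chosen by name among the 23060 rows of a deposited expression table. They are the pro-survival genes Bcl2, Bcl2l1 (BCL-XL), Mcl1, Bcl2a1b and Bcl2a1d (A1 paralogs), the pore-forming effectors Bax and Bak1, and the BH3-only death genes Bbc3 (PUMA), Pmaip1 (NOXA) and Bid. RNA came from 3 tachypaced and 3 control samples of wild type genotype whose label is HL-1, a line derived from mouse atrial muscle cells, all grown in Claycomb medium with serum, antibiotics, norepinephrine and glutamine. Tachypacing drives cells electrically at a fast rate to mimic atrial fibrillation, and the design asks how expression changes after it. The labels give neither pacing rate, duration or strain nor whether each replicate was its own culture. The spread behind the p-values may therefore be technical.

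Pro-survival members hold the effectors Bax and Bak1 in check by binding them or the BH3-only proteins that activate them. When the BH3-only proteins prevail, Bax and Bak1 form pores in the outer mitochondrial membrane, cytochrome c leaves, and the apoptosome activates caspases. MCL1 is a short-lived protein on which many myeloid cells depend, BCL-XL supports the survival of many cell types, cardiac muscle among them, and A1 genes are transcribed mainly in blood cells.

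The family is recognised by short shared segments, shown here for the members searched for them. Below are coding bases from GENCODE transcripts (release M21, GRCm38), 30 for each multidomain member, read 5′ to 3′ on the gene's strand. Capitals mark the BH1 core, codons for asparagine, tryptophan, glycine and arginine, with serine in place of asparagine in Bak1.
Bcl2 BH1 (chr1:106712443-106712472, minus strand): gatggggtgAACTGGGGGAGGattgtggcc
Bcl2l1 BH1 (chr2:152829565-152829594, minus strand): gatggagtaAACTGGGGTCGCatcgtggcc
Mcl1 BH1 (chr3:95659841-95659870, plus strand): ggcgtaacaAACTGGGGCAGGattgtgact
Bcl2a1b BH1 (chr9:89199603-89199632, plus strand): ggcatcattAACTGGGGAAGGattgtgact
Bcl2a1d BH1 (chr9:88731447-88731476, minus strand): ggcatcattAACTGGGGAAGGattgtgact
Bax BH1 (chr7:45465222-45465251, minus strand): ggcaacttcAACTGGGGCCGCgtggttgcc
Bak1 BH1 (chr17:27021308-27021337, minus strand): agtggcatcAGCTGGGGCCGCgtggtggct
The 30 bases of Bcl2a1b and Bcl2a1d were the same. Bbc3 and Bid had no match to this core, but both held the BH3 segment, printed as 36 coding bases with capitals on the codon for leucine and on those for glycine (alanine in Bbc3) and aspartate.
Bbc3 BH3 (chr7:16313764-16313799, plus strand): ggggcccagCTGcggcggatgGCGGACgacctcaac
Bid BH3 (chr6:120897289-120897324, minus strand): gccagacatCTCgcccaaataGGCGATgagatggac
The same BH3 pattern was found once each in Bcl2, Bcl2l1, Mcl1, Bax and Bak1 and was not found in Bcl2a1b or Bcl2a1d. Pmaip1 was not searched for either segment.

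Cardiomyocyte transcripts were close to absent from these libraries. Of 10 cardiomyocyte markers, 6 (Myh6, Actc1, Myl7, Nkx2-5, Gata4 and Tbx5) were at 0 in all 6 libraries, and the summed level of all 10 ran from 0.107 to 0.361 FPKM in tachypaced and from 0.348 to 0.430 FPKM in control libraries. FPKM is a fragment number scaled to transcript length and to the library's mapped fragments. All 10 macrophage markers were detected, with sums of 1651 to 1830 FPKM in tachypaced and 1325 to 1491 FPKM in control libraries, and 3 of them (Lyz2, Cd14 and Fcer1g) rose, against 7 without control replicate 1. Among all genes tested, 2.30% rose with all 6 libraries and 11.2% without control replicate 1. No marker of neutrophils, B cells, T cells, dendritic cells, fibroblasts or endothelium exceeded 2.39 FPKM in any library. The part of this shift in the results below was not tested. Control replicate 1 differed from its group: without it 1160 genes were higher and 1948 lower in tachypaced libraries, against 238 and 334 with all 6 libraries (221 and 184 under median of ratios scaling), so the fold changes of the tested members are also given without it. Control replicate 1 was singled out from these same values, so adjusted p-values without it do not have their usual meaning. Read depth is unknown, since FPKM carries no counts and low values did not fall on common steps, so no detection floor could be set.

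The family's transcripts stood at widely different levels. Bax and Mcl1 were the most abundant, with means of 231 and 218 FPKM over the 6 libraries, and together they made up 73.5% to 75.2% of the summed FPKM of the 10 members in tachypaced and 73.8% to 76.8% in control libraries. Bax is the effector that moves from cytosol to mitochondria. The ranges of Bax and Mcl1 overlapped, so their order is not settled. Next came Bcl2l1 and Bbc3 at 49.2 and 43.2 FPKM, with overlapping ranges, and then Bid and Bak1 at 28.1 and 27.0 FPKM, also overlapping. Bcl2, the founding member, followed at 3.57 FPKM, 7.56 times below Bak1. The Mcl1 range lay above that of Bcl2l1, the Bbc3 range above that of Bid, and the Bak1 range above that of Bcl2. Bcl2a1b, Bcl2a1d and Pmaip1 averaged 0.229, 0.0898 and 0.0223 FPKM. In bulk RNA, fewer cells with a transcript and less of it per cell cannot be told apart.

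**Figure D1:**
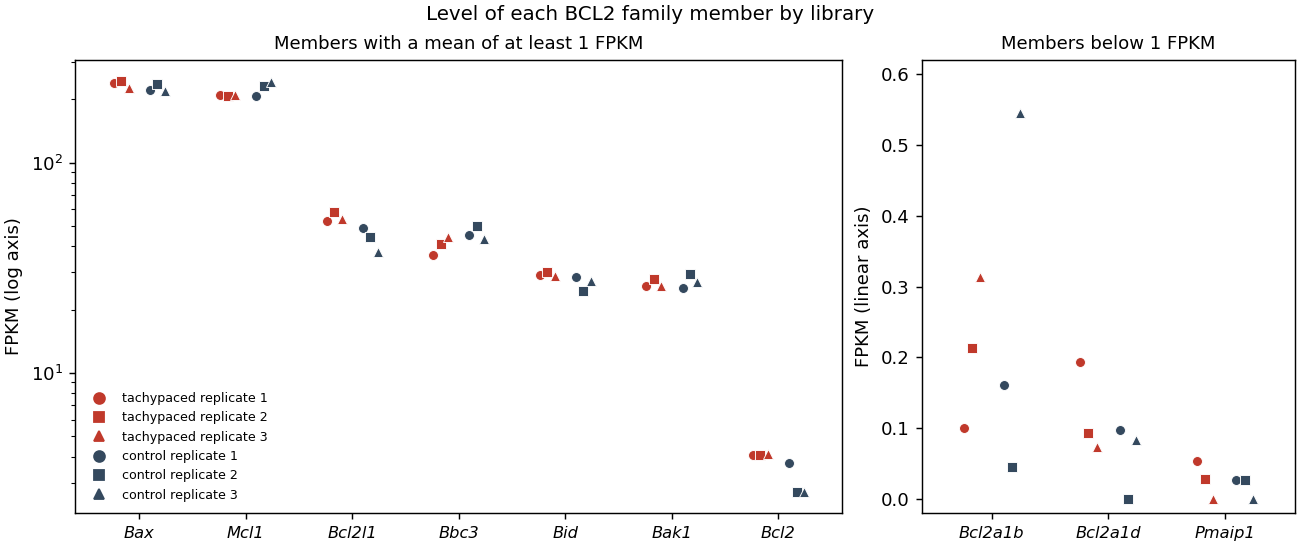
FPKM of the 10 BCL2 family members in each library, tachypaced in red and control in dark blue, with 1 symbol per replicate number. The left panel has a log axis and holds the 7 members averaging at least 1 FPKM, from Bax and Mcl1 down to Bcl2 at 3.57 FPKM; the right panel has a linear axis for the 3 others, none above 0.545 FPKM.

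No member passed the test between tachypaced and control libraries. Of the 10 members, 7 averaged at least 1 FPKM and were tested together with all such genes. Of these, 0 rose and 0 fell by limma on log2(FPKM + 1) with a Benjamini-Hochberg adjusted p threshold of 0.05, while 5.52% of the 10361 tested genes were called (2.30% higher and 3.22% lower). At an unadjusted p below 0.05 there were 2, Bcl2 and Bcl2l1, both higher, and 30.2% of all tested genes reached that level (10.8% higher and 19.4% lower). The median log2 fold change of the 7 members was 0.07, beside -0.04 over all tested genes. In 3 members, Bcl2, Bcl2l1 and Bid, all tachypaced values lay above all control values, as in 12.6% of tested genes. In 0 members all tachypaced values lay below all control values, as in 22.4% of tested genes. These counts use FPKM as deposited. Summed FPKM over all genes was 419557 to 432244 in tachypaced and 411050 to 416820 in control libraries, without overlap. Overlaps after scaling to that sum were not worked out. Narrow results, such as the separation of Bid and the overlap of Mcl1, may depend on it.

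Among the pro-survival members, Bcl2 and Bcl2l1 were higher in each tachypaced library and Mcl1 was not. Bcl2 stood at 4.08, 4.06 and 4.12 FPKM in tachypaced replicates 1, 2 and 3, against 3.72, 2.71 and 2.70 FPKM in control replicates 1, 2 and 3. The tachypaced values were nearly equal, while control replicate 1 lay between them and the other controls. On the log2(FPKM + 1) scale, which understates changes of low genes, the difference was 0.34 (SE 0.10, 95% interval 0.11 to 0.58, adjusted p = 0.0754). Without control replicate 1 it was 0.46 (adjusted p = 0.00349), and over the other alternatives its adjusted p ran from 0.0679 to 0.228.

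Bcl2l1 encodes BCL-XL, and its row does not separate the long pro-survival form from shorter splice forms (9 transcripts are annotated). It stood at 52.6, 58.2 and 53.8 FPKM in tachypaced libraries and at 49.0, 44.3 and 37.5 FPKM in control libraries. The groups did not overlap, and the highest control was again replicate 1. Means were 54.9 ± 2.95 FPKM in tachypaced and 43.6 ± 5.76 FPKM in control libraries (SD, n = 3 each), a ratio of 1.26. The log2 difference was 0.33 (SE 0.09, interval 0.12 to 0.54, adjusted p = 0.0617), and 0.42 without control replicate 1 (adjusted p = 0.00531). Leaving out control replicate 3 instead gave 0.23 (adjusted p = 0.169).

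Mcl1 encodes a short-lived pro-survival protein. It stood at 210.5, 206 and 210.4 FPKM in tachypaced libraries and at 207, 232 and 240.3 FPKM in control libraries. Control replicate 1 fell among the tachypaced values, and the groups overlapped. The log2 difference was -0.11 (SE 0.06, interval -0.25 to 0.03, adjusted p = 0.246), and without control replicate 1 it was -0.17 (adjusted p = 0.0187). With that library left out, 2 tested members were therefore higher and 1 lower, where 11.2% and 18.8% of 10349 tested genes were.

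The A1 paralogs were barely detected. Bcl2a1b stood at 0.0997, 0.213 and 0.313 FPKM in tachypaced and at 0.161, 0.0446 and 0.545 FPKM in control libraries. Bcl2a1d stood at 0.193, 0.0937 and 0.0725 FPKM in tachypaced and at 0.0969, 0 and 0.0826 FPKM in control libraries. Groups overlapped for both, and neither was tested. The paralogs lie on chromosome 9, Bcl2a1b at 89199209 to 89207827 and Bcl2a1d at 88723285 to 88731914 (GRCm38). Their coding sequences of 516 bases differed at 6 positions, with an identical run of 217 bases, and Bcl2a1a differed from Bcl2a1d at 7. Reads could therefore be divided between these genes or dropped, and how the counting treated them is not given in the sources used here. The sum of the 4 A1 genes reached at most 0.413 FPKM in tachypaced and 0.627 FPKM in control libraries.

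The effectors differed little between the groups. Bax stood at 239, 245 and 225 FPKM in tachypaced and at 221, 237 and 219 FPKM in control libraries. The groups overlapped, with a log2 difference of 0.07 (SE 0.06, interval -0.06 to 0.19, adjusted p = 0.443), and 0.05 without control replicate 1. Bak1, the effector resident at mitochondria, stood at 25.7, 28.0 and 25.8 FPKM in tachypaced and at 25.4, 29.6 and 27.1 FPKM in control libraries. Its difference was -0.04 (SE 0.07, interval -0.20 to 0.11, adjusted p = 0.698) and turned to 0.01 without control replicate 2, while it was -0.09 without control replicate 1.

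The 3 BH3-only members had no common direction. Bbc3, the PUMA gene and a known p53 target, stood at 36.5, 40.8 and 44.1 FPKM in tachypaced and at 45.0, 49.8 and 43.1 FPKM in control libraries. Only tachypaced replicate 3 reached into the control range. The difference was -0.18 (SE 0.08, interval -0.36 to 0.003, adjusted p = 0.171), and -0.11 without tachypaced replicate 1. Without control replicate 1 it was -0.19 (adjusted p = 0.126). Bid, which death receptor signalling activates through cleavage by caspase 8, stood at 29.0, 30.3 and 28.73 FPKM in tachypaced and at 28.65, 24.4 and 27.4 FPKM in control libraries. The groups missed overlapping by less than 0.1 FPKM, the highest control being replicate 1. Its difference was 0.13 (SE 0.07, interval -0.02 to 0.28, adjusted p = 0.229), and 0.18 without that library (adjusted p = 0.0600). Pmaip1 was listed at 0.0537, 0.0273 and 0 FPKM in tachypaced and at 0.0263, 0.0267 and 0 FPKM in control libraries and was not tested.

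**Figure D2:**
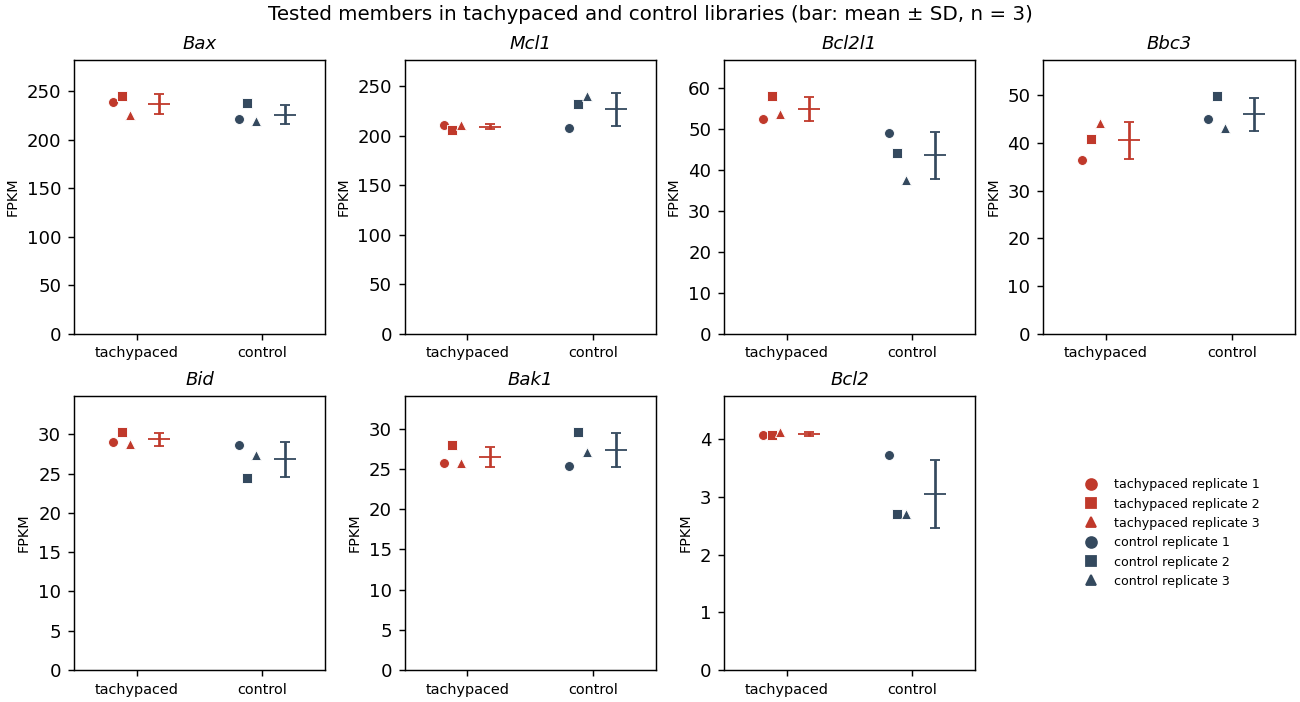
FPKM of the 7 tested members in tachypaced and control libraries, each panel with its own linear axis from 0. Symbols are libraries and bars the mean ± SD of 3. Bcl2 and Bcl2l1 are higher in all 3 tachypaced libraries, with control replicate 1 (dark circle) the nearest control, and Mcl1 of control replicate 1 (207 FPKM) sits among the tachypaced values.

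Control replicate 1 moved with the tachypaced group in some members and not in others. On a log2 scale with the other 2 controls at 0 and the tachypaced mean at 1, it stood at 0.76 for Bcl2, 0.62 for Bcl2l1, 0.81 for Bid and 1.07 for Mcl1. For Bak1, with a small difference between groups, it stood at 1.59. For Bbc3 it stood at 0.21, near the other controls, and for Bax at -0.86, on the far side of them. These positions describe how removal of that library enlarged the differences of Bcl2, Bcl2l1 and Mcl1, and are no independent support for them.

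**Figure D3:**
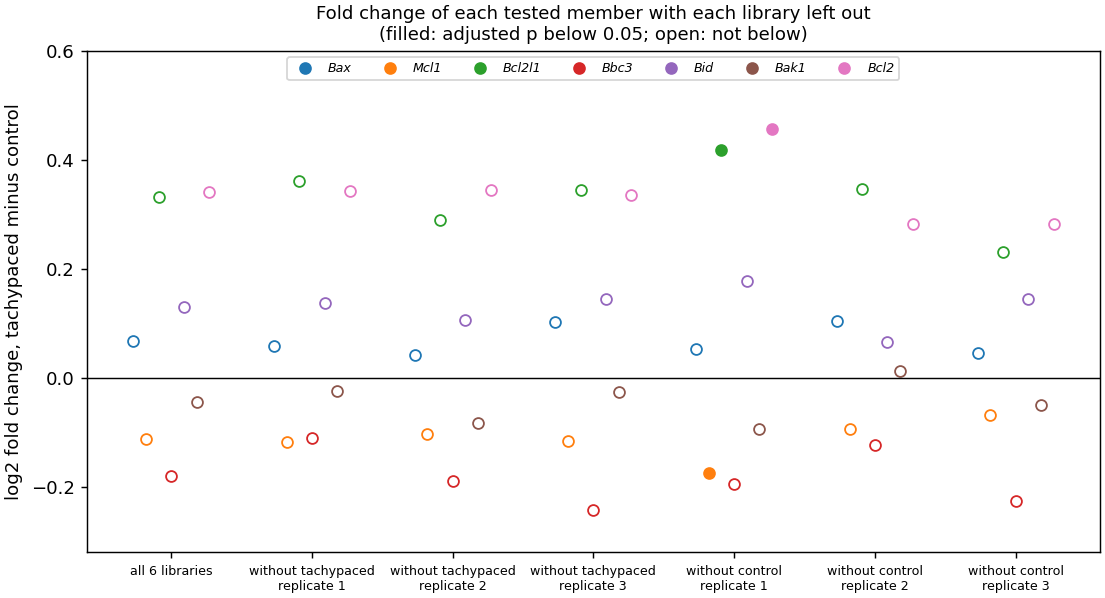
Log2 fold change (tachypaced minus control, log2(FPKM + 1)) of the 7 tested members with all 6 libraries and with each library left out. Filled symbols have an adjusted p below 0.05, which occurred for Bcl2, Bcl2l1 and Mcl1 and only without control replicate 1; Bak1 crossed 0 without control replicate 2.

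Within a library, some ratios between members did not overlap between the groups, while sums over members did. Bcl2l1 amounted to 0.250, 0.282 and 0.256 of the Mcl1 level in tachypaced libraries, against 0.236, 0.191 and 0.156 in control libraries. The groups did not overlap. Mcl1 supplied 77.9% ± 1.046 of the summed pro-survival FPKM in tachypaced and 82.8% ± 2.93 in control libraries, and Bcl2l1 supplied 20.4% ± 1.06 in tachypaced and 16.0% ± 2.74 in control libraries (SD, n = 3 each). The sum of the 5 pro-survival members, in contrast, was 268 ± 0.787 FPKM in tachypaced and 273 ± 11.4 FPKM in control libraries. Divided by the sum of Bax and Bak1 it gave 1.02 ± 0.0445 in tachypaced and 1.08 ± 0.0533 in control libraries, with overlapping values. Bbc3 over Bid was 1.38 ± 0.143 in tachypaced and 1.73 ± 0.271 in control libraries, and Bak1 over Bax 0.112 ± 0.00392 in tachypaced and 0.121 ± 0.00535 in control libraries, both without overlap. For Bak1 over Bax the nearest values were 0.1146 in tachypaced replicate 3 and 0.1153 in control replicate 1. Bcl2 over Bcl2l1 overlapped, at 0.0747 ± 0.00422 in tachypaced and 0.0697 ± 0.00761 in control libraries. Without control replicate 1, the control means were 0.174 for Bcl2l1 over Mcl1, 1.09 for the pro-survival sum over Bax and Bak1, 1.81 for Bbc3 over Bid and 0.124 for Bak1 over Bax. These ratios were formed from the values above and carry no test, and an exact permutation test of 3 against 3 libraries could not go below p = 0.1. The share of other gene pairs whose ratios do not overlap was not worked out. Of single tested genes, 34.9% did not overlap.

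**Figure D4:**
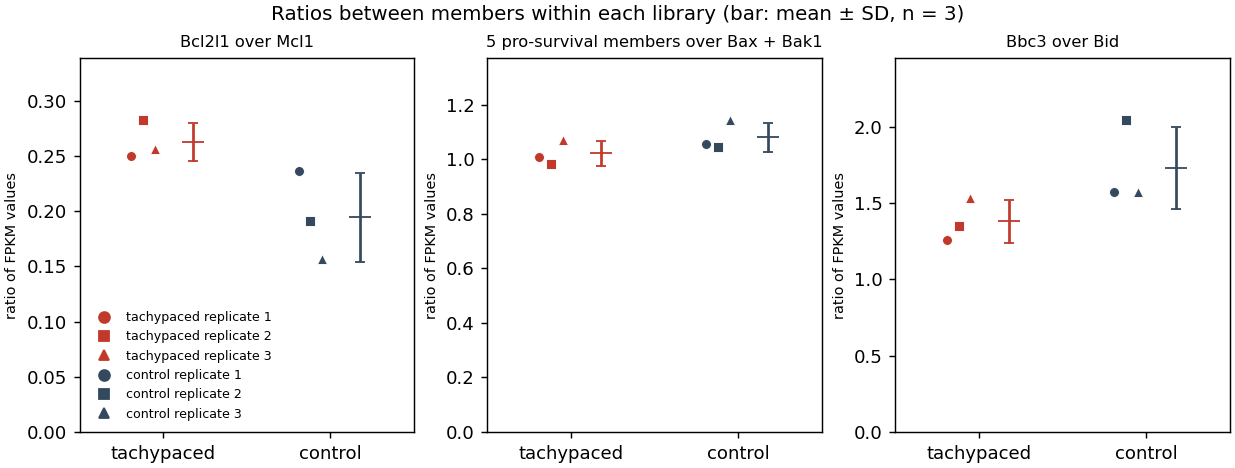
Ratios of FPKM values within each library, tachypaced left of control, on axes from 0, with the mean ± SD of 3 libraries as a bar. Bcl2l1 over Mcl1 lies at 0.250 or above in tachypaced and at 0.236 or below in control libraries, while the 5 pro-survival members over Bax + Bak1 overlap near 1.

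Positions and neighbours were taken from the annotation. Bcl2 lies on chromosome 1 (106538178 to 106714274), Bcl2l1 on chromosome 2 (152780668 to 152831728), Mcl1 on chromosome 3 (95658788 to 95663176) and Bid on chromosome 6 (120891930 to 120916853). Bax (45461697 to 45466898) and Bbc3 (16308393 to 16318205) are both on chromosome 7, and Bak1 is on chromosome 17 (27019810 to 27029009). Bid overlaps Bcl2l13, a BCL2-related gene on the other strand at 8.58 to 9.59 FPKM, and the strand setting is not given, so some reads could be shared between them. Gm45808 on the strand of Bax and Ggnbp1 opposite Bak1 did not exceed 0.177 FPKM.

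The promoters of Bcl2 and Bcl2l1, the 2 members with an unadjusted p below 0.05, are shown as 250 bases before a RefSeq start (GRCm38.p6). Capitals mark GGGCGG, the GC box letters, on either strand.
Bcl2 (chr1:106714291-106714540, minus strand): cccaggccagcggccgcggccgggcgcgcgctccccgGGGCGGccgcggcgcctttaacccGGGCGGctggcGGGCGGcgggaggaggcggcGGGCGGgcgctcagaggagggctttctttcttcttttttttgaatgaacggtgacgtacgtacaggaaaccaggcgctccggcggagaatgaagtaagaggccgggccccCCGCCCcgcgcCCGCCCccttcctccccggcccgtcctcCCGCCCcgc
Bcl2l1 (chr2:152831729-152831978, minus strand): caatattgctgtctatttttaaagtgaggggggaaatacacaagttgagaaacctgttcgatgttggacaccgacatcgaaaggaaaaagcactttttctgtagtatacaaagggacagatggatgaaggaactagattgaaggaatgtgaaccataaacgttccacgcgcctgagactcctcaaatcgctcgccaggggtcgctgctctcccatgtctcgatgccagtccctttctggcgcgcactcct
The Bcl2 window held 7 matches on both strands together, a GC content of 74.8% and 36 CpG pairs. The window of Bid, also higher in all tachypaced libraries and not printed, held 3 matches at 63.6% GC. Members that were not higher in all tachypaced libraries held matches too. There was 1 for Mcl1 at 64.4% GC and 2 for Bax at 54.0% GC. The Bbc3 windows held 5, 1 and 7 matches at 72.4% to 81.6% GC. Bcl2a1b and Bcl2a1d held 1 each and Bak1 held 0. A link between matches and the differences was not tested. The Bcl2l1 window held 0 matches, with 47.6% GC and 12 CpG pairs. It ends at the outermost annotated base of the gene, and RefSeq lists 2 further Bcl2l1 starts, whose windows also held 0 GC box matches. Of 32851 windows of this length, 32.7% held GGGCGG, with medians of 52.4% GC and 6 CpG pairs. Neither printed window matched TTCNNNGAA, the core letters of STAT sites (7.02% of windows), TGACGTCA (1.55%), CCAAT (33.8%) or the NF-kB consensus (7.25%). A second Bcl2l1 window held 1 match to the NF-kB consensus. A window of Bbc3, which was not higher in all tachypaced libraries, held 2 such matches, and another Bbc3 window held 1 match to CCAAT.

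The rest of the BCL2 family gave no call. Of 10 further members, 4 could be tested, and 0 rose and 0 fell, with 0 at an unadjusted p below 0.05. Bcl2l2 (BCL-W, pro-survival) stood at 13.3 ± 0.971 FPKM in tachypaced and 14.0 ± 0.4999 FPKM in control libraries. The BH3-only genes Bcl2l11 (BIM) and Bad stood at 13.4 ± 0.509 and 10.3 ± 1.06 FPKM in tachypaced and at 13.8 ± 1.43 and 11.2 ± 0.969 FPKM in control libraries (SD, n = 3 each). Bmf, another BH3-only gene, had 2.66 ± 0.191 FPKM in tachypaced and 2.39 ± 0.698 FPKM in control libraries. Without control replicate 1 the log2 difference of Bmf was 0.29 (adjusted p = 0.0567), and those of Bcl2l2, Bcl2l11 and Bad lay between -0.09 and 0.01. Bok, a relative of Bax, reached at most 0.373 FPKM, Bcl2a1a at most 0.0979 FPKM, and Bcl2a1c and Hrk were listed at 0 in every library. Of 6 tested BCL2-related genes, among them the mitophagy receptors Bnip3 and Bnip3l, 0 rose and 0 fell. At an unadjusted p below 0.05 there was 1, Bnip3l, at 109.5 ± 3.90 FPKM in tachypaced and 122 ± 5.51 FPKM in control libraries (adjusted p = 0.102), and both fell without control replicate 1, where 18.8% of tested genes did.

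Downstream of the family, 1 of 12 tested apoptosome and caspase genes fell and 0 rose, where 3.22% of all tested genes fell and 2.30% rose. The median log2 fold change of the 12 was -0.17, and 4 had an unadjusted p below 0.05, all lower, as had 19.4% of all tested genes. The gene that fell was Aifm1, a mitochondrial flavoprotein that supports the respiratory chain and can enter the nucleus in cell death. It stood at 30.3, 30.9 and 32.8 FPKM in tachypaced and at 34.9, 41.1 and 42.4 FPKM in control libraries. The log2 fold change was -0.32 (SE 0.08, adjusted p = 0.0494). Leaving out any library other than control replicate 1 ended this call (adjusted p from 0.0835 to 0.175), and so did no filter (0.128), median of ratios scaling (0.0583), quantile normalization (0.0608) and no trend (0.0694). Apaf1, the apoptosome scaffold, stood at 5.51 ± 0.123 FPKM in tachypaced and 6.36 ± 0.382 FPKM in control libraries (adjusted p = 0.132, and 0.0560 without control replicate 1), and the initiator Casp9 at 5.402 ± 0.210 FPKM in tachypaced and 6.05 ± 0.414 FPKM in control libraries (adjusted p = 0.239, and 0.289 without control replicate 1). Among the genes of this list that fell without control replicate 1 were Aifm1, Casp6, Diablo and Dffa, with log2 fold changes from -0.56 to -0.24. In that setting 18.8% of all tested genes fell.

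Of 8 tested inhibitors of apoptosis 1 fell and 0 rose, beside the same 3.22% and 2.30% of all tested genes, and 4 had an unadjusted p below 0.05, all lower (19.4% of all tested genes). The gene that fell was Birc5 (survivin), best known as a mitotic protein of the chromosomal passenger complex, at 22.8, 22.3 and 23.7 FPKM in tachypaced and at 28.2, 29.4 and 33.1 FPKM in control libraries. Its log2 fold change was -0.38 (SE 0.07, adjusted p = 0.0435), with an adjusted p of 0.0690 to 0.173 when a library other than control replicate 1 was left out, 0.126 with no filter, 0.0514 with quantile normalization and 0.0608 without trend. Xiap, the direct caspase inhibitor, stood at 14.3 ± 0.712 FPKM in tachypaced and 14.7 ± 0.873 FPKM in control libraries (adjusted p = 0.796), and its fitted difference of -0.03 turned to 0.01 without control replicate 1. Without that library, 2 of the inhibitors, Birc3 and Naip5, rose and 2, Birc5 and Naip2, fell, as did 11.2% and 18.8% of all tested genes.

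The 4 remaining lists held 0 calls in either direction. They were 10 tested death receptor genes, 9 BCL2 partners at mitochondria and reticulum, 6 genes of MCL1 turnover and 13 regulators of family transcription, with median log2 fold changes of -0.02, -0.03, -0.04 and -0.09. At an unadjusted p below 0.05 there was 1 death receptor gene (lower), 4 partners (2 higher and 2 lower), 2 turnover genes (1 higher and 1 lower) and 2 regulators (both lower), where 30.2% of all tested genes reached that level. With a minimum mean of 5 FPKM, the regulator Ddit3 and the partner Itpr3 fell (adjusted p = 0.0461 and 0.0434), and Ddit3 also fell with the replicate block (adjusted p = 0.0391). Trp53, the p53 gene, stood at 39.1 ± 2.78 FPKM in tachypaced and 42.2 ± 3.13 FPKM in control libraries (adjusted p = 0.357, and 0.0792 without control replicate 1). Without control replicate 1, 1 death receptor pathway gene (Mlkl), 3 partners (Vdac1, Vdac2 and Itpr3) and 3 regulators (Ddit3, Atf4 and E2f1) fell. In the same setting 1 partner (Tmbim6) rose and 0 genes of MCL1 turnover passed. Of all tested genes, 18.8% fell and 11.2% rose without that library. Ddit3, which encodes the stress factor CHOP, stood at 93.5, 94.1 and 103 FPKM in tachypaced and at 106, 141 and 138 FPKM in control libraries (adjusted p = 0.0581 with all libraries). The genes passing under other settings were named after their values were seen.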

How the data were processed

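Total RNA of 3 tachypaced and 3 control samples was made into libraries with a SMARTER mRNA kit, per the labels' protocols. The authors deposited FPKM values, 1 row per gene name and 1 column per library, on GRCm38 (mm10) per the submitters' processing notes. Aligner, quantifier, annotation and strandedness: not given in the sources used here. Each column name equals 1 sample's description. Ratios of values under 0.05 FPKM between libraries gathered on no common step (at most 6.67% in a log2 bin of 0.05), so depth is unknown.

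On log2(FPKM + 1) values, limma 3.58.1 (R 4.3.3; moderated, two-sided, with an intensity trend and no covariates) compared tachypaced with control libraries for the 10361 genes whose overall mean was 1 FPKM or more, with Benjamini-Hochberg adjustment over all of them. Intervals are 95% intervals from the same moderated fit. The fit was tested on simulated data, in which 68% of genes changed by 0.5 on the log2 scale were recovered. Smaller changes, such as those fitted for the members, were not simulated. Noise was drawn independently for each gene and library, with no shift common to a library, so this recovery may not hold for these data.

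The members, the 8 further lists (81 symbols) and the markers were chosen with earlier results of these data known. Named were all members, called genes of the further lists and 12 fixed genes, 1 of which is not reported here; genes with like profiles were to be named for called members, of which there were 0. Alternatives were a pseudocount of 0.1, quantile normalization, median of ratios scaling, no filter or one at a mean of 5 FPKM, robust hyperparameters, no trend, a replicate block and each library left out in turn. Promoters are from RefSeq (GRCm38.p6; 9 of 10 members used) and coding bases from GENCODE M21. Python 3.11.15, pandas 2.3.3 and matplotlib 3.10.9 were used.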

Additional observations from a re-analysis of the deposited data

How the results depend on the processing

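Of the 7 tested members, 0 passed in either direction under every alternative except 1: without control replicate 1, 2 were higher and 1 lower, so that over the libraries left out the members called ran from 0 to 2 higher and from 0 to 1 lower. Leaving out a library removes that library's values, and the cause of the shift was not tested. Bak1 changed sign in 1 alternative, over a leave-one-out range of -0.0944 to 0.0117, and the other tested members kept theirs. Bcl2 was not tested at a minimum mean of 5 FPKM. Over all genes the counts moved widely. They were 0 higher and 0 lower with no filter, 13 and 4 with quantile normalization, and 2 and 0 without the trend. Leaving out control replicate 1 gave 1160 higher and 1948 lower. Leaving out any other library gave only 1 to 3 higher and 0 to 1 lower. The 5.52% of genes called with all 6 libraries was therefore not kept in those fits. Median of ratios scaling gave 221 higher and 184 lower, against 238 and 334 before it. Of the other named genes, Bcl2l11 and Xiap changed sign under quantile normalization (0.0185 and 0.0312) and with libraries left out, over ranges of -0.12 to 0.00523 and -0.0745 to 0.00507. Of 224 further counts of the lists, 196 were within 1.5 times the value reported and 28 were not. Most of the 196 were counts of 0 that stayed at 0, so they say little about stability. The calls of Aifm1 and Birc5 held in only 5 and 6 of 14 alternatives.

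Samples of the 2 groups shared replicate numbers without a stated pairing. Deviations of same-numbered libraries correlated at 0.06, -0.03 and 0.16 for replicates 1, 2 and 3, and not every library correlated best with its own number. With the replicate block, 334 genes were higher and 591 lower, and 0 members passed, while 1 regulator, Ddit3, was added to the calls of the lists.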
